A study of Mus musculus with 8 samples.

Results

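The non-specific lethal (NSL) complex genes were examined for NF-YA binding in muscle stem cells (MuSCs), and 8 peaks at 3 of the 9 genes were found among the 7196 peaks of the series. A peak was counted when the deposited gene symbol was *Kat8*, *Kansl1*, *Kansl2*, *Kansl3*, *Mcrs1*, *Phf20*, *Wdr5*, *Hcfc1* or *Ogt* in the table, where peaks were annotated by a window of about 10000 bases around gene starts. *Kansl2* held 3 peaks, *Kansl1* 1 and *Phf20* 4, whereas the other 6 genes had none. For comparison, 3197 of 21951 protein-coding genes (14.6%) had an assigned peak, and 2356 (10.7%) had one within 1000 bases of the start. All 3 NSL genes with a peak had one within that distance, and with 9 genes such a share is a description only. Peaks called in the libraries were merged into a common list, so a peak here is not tied to a library or genotype.

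The NSL complex is a chromatin-modifying assembly built around the lysine acetyltransferase KAT8 (also called MOF), which acetylates histone H4 and has also been linked to the acetylation of lamin A/C. KANSL1, KANSL2 and KANSL3 are the subunits after which the complex is named, with KANSL1 acting as its scaffold. MCRS1 and PHF20 are further subunits, PHF20 being a reader of histone methylation. WDR5, a WD40-repeat adaptor, the transcriptional cofactor HCFC1, and OGT, which attaches O-GlcNAc to proteins, also belong to other complexes. NF-YA is the subunit of the trimeric factor NF-Y that contacts DNA, and its binding site contains CCAAT.

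The libraries came from MuSCs of C57BL/6 mice that were purified and cultured and are labelled as activated and proliferating. In Taf4asKO cells, 2 exons of *Taf4a* flanked by loxP sites, not the whole gene, were deleted by a tamoxifen-inducible Cre expressed from *Pax7*, a gene of MuSCs. For the study as a whole, controls are described as littermates that also carried the floxed *Taf4a* alleles, with or without the Cre. Tamoxifen is named for Taf4asKO, some mice of either genotype carried a *Pax7* reporter, and adult animals of both sexes were used. The titles, however, label the control libraries WT, and the study's methods for CUT&RUN name wild type cells. Which control genotype each library came from is not stated. NF-YA was profiled by CUT&RUN, in which a nuclease is brought to the antibody and releases the DNA beside the bound protein, in 2 control and 2 Taf4asKO libraries. IgG libraries of both genotypes, 4 in all, were not analysed here. Nothing states whether replicates are separate mice or cultures, so p-values measure only the spread between these libraries. Marker genes of MuSCs cannot be checked in a table of binding. Of 9 peaks in *Taf4*, the symbol of *Taf4a* in the annotation, or assigned to it, 7 lay in the gene, each over an exon. All 7 were lower in Taf4asKO, with values of 29 to 417 in the control libraries and of 3 to 62 in those of Taf4asKO (log2 differences -3.35 to -2.74, highest limma adjusted p 0.0132). These 7 calls held under 5 of 11 alternative fits and were lost under the other 6 (no minimum, no variance trend and each fit without 1 library), where the limma adjusted p was 0.0549 to 0.739. Their log2 differences stayed between -3.84 and -2.27 under all 11. The other 2, before the start, had 14 and 20 against 10 and 14, which did not pass the test, and 8 and 10 against 5 and 5, which were below the minimum for it. The 7 peaks in the gene were spread from chr2:179912432 to chr2:179975495, and which of them cover the deleted exons was not tested. Whether the signal over the exons under these peaks is NF-YA binding was not tested either.

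Values are reads per peak after scaling by the authors. Reads in peaks numbered 351696 and 111265 in control replicates 1 and 2, and 734977 and 505426 in Taf4asKO replicates 1 and 2, as estimated from how often each value occurs. Fewer reads in peaks and the control genotype go together and cannot be told apart. One read was worth 1.04 and 3.26 units in the control replicates, so that weak control values rest on a few reads.

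The sequences under the *Kansl2* and *Kansl1* promoter peaks are shown because these are the only NSL peaks with more than 1 CCAAT. They are written on the strand of the gene, and capitals mark CCAAT. The *Kansl2* peak (chr15:98534206-98534538, GRCm38, minus strand) ran from position -269 to 63 around the RefSeq start, and the part before the start (chr15:98534270-98534538) is printed. The *Kansl1* peak (chr11:104469453-104469578, minus strand) is printed whole and lay at positions -135 to -10 from the RefSeq start.
Kansl2 promoter: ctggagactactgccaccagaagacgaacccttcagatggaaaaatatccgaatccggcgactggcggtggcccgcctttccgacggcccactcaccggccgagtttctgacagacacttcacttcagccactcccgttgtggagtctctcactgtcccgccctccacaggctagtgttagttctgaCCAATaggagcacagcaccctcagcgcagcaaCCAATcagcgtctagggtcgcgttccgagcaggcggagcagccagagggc
Kansl1 promoter: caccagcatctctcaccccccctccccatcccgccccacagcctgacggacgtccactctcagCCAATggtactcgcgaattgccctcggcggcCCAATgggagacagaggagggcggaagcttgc

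In each promoter CCAAT occurred as a pair on the strand of the gene. The first letters stood at -82 and -50 from the start in *Kansl2*, a spacing of 32 bases, and at -72 and -41 in *Kansl1*, a spacing of 31 bases. The deposited table places the *Kansl1* peak 655 bases from the start, because the RefSeq start lies at -582 from the start of the gene in GENCODE. Relative to RefSeq the centre of the peak lay at -72, the position of the distal CCAAT.

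Pairs of CCAAT with this spacing were rare. Searching CCAAT on both strands in 32851 RefSeq promoters of 300 bases (250 before and 50 after the start), 12289 (37.4%) held at least 1 match, 3842 (11.7%) at least 2, and 210 (0.639%) a pair on one strand 31 or 32 bases apart. Of the promoters with that pair 169 (80.5%) overlapped an NF-YA peak. By contrast, a peak overlapped 39.6% of promoters with at least 2 matches, 9.17% of those with exactly 1 and 1.35% of those with none. The spacing was taken from the *Kansl1* and *Kansl2* promoters after they were seen. With 26 to 36 bases allowed, 554 promoters had a pair and 68.6% of them overlapped a peak. With 20 to 60 bases allowed, 1378 promoters had a pair and 62.5% of them overlapped a peak. Alternative starts of a gene share peaks, and the shares describe these windows only.

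**Figure D1:**
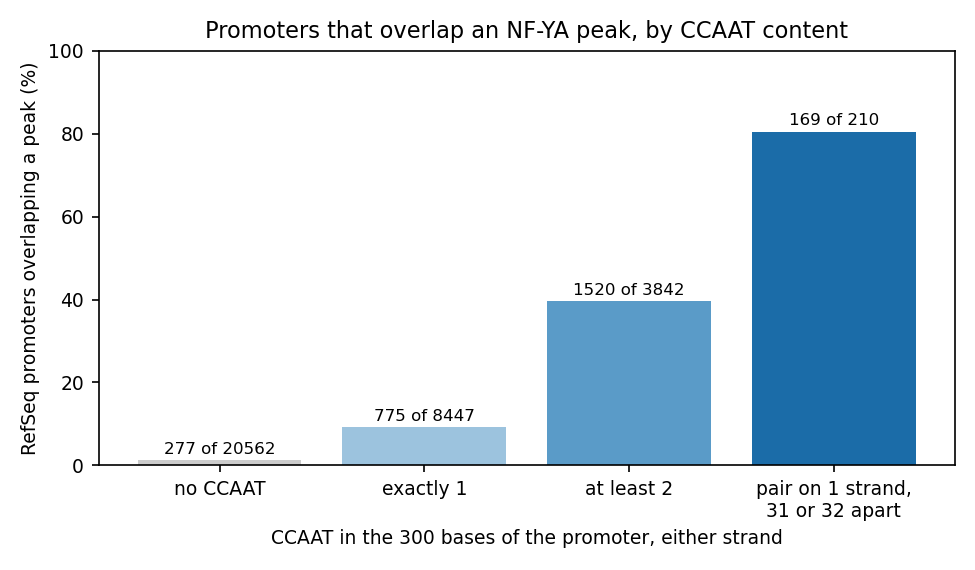
Share of RefSeq promoters that overlap an NF-YA peak (vertical axis, percent) by the CCAAT content of the 300 bases (horizontal axis); the last bar is a subset of the third, and counts stand above the bars. The share is 1.35% without CCAAT and 80.5% with the pair that the *Kansl1* and *Kansl2* promoters contain.

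Of the 6 genes without an assigned peak 4 had no CCAAT in their RefSeq promoters, namely *Mcrs1*, *Wdr5*, *Hcfc1* and *Ogt*. Within 1000 bases to either side of the start, *Mcrs1* still had 0 matches, *Wdr5* and *Hcfc1* had 1 each and *Ogt* 3, and *Kat8* and *Kansl3* had 3 and 4. The 3 genes with a peak were not set apart by this count, with 3 in *Kansl1* and 4 each in *Kansl2* and *Phf20*. In its promoter *Kansl3*, whose product is a core NSL subunit, had 1 match on the other strand, 35 bases after its start. *Kat8*, the gene of the acetyltransferase, had a match at -136 from its first RefSeq start and 2 on the other strand at a second start, with no peak at either. Thus 3 of the 9 genes, *Kat8*, *Kansl3* and *Phf20*, carried a CCAAT in a promoter outside any peak. The *Kat8* site (chr7:127912350-127912416, plus strand) and the *Phf20* site (chr2:156196504-156196532, plus strand), at -131 from the RefSeq start, are shown as single promoter matches, without a pair and without a peak over them.
Kat8 site: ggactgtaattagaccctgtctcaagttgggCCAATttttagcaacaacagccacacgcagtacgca
Phf20 site: gcagcacccaggCCAATgcttctggtgac

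Nor was a peak found anywhere in the bodies of these 6 genes or in the 10000 bases before them. The peak nearest the annotated start was 16836 bases away for *Kat8*, 25068 for *Wdr5*, 44410 for *Hcfc1*, 76197 for *Kansl3*, 82895 for *Mcrs1* and 107431 for *Ogt*. Where the table gave these neighbouring peaks a symbol, it was that of another gene, namely *Vkorc1* beside *Kat8*, *Naa10* beside *Hcfc1*, *Lman2l* beside *Kansl3* and *Taf1* beside *Ogt*. The list holds only regions that were called as peaks, and signal below the calling threshold cannot be seen in it.

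**Figure D2:**
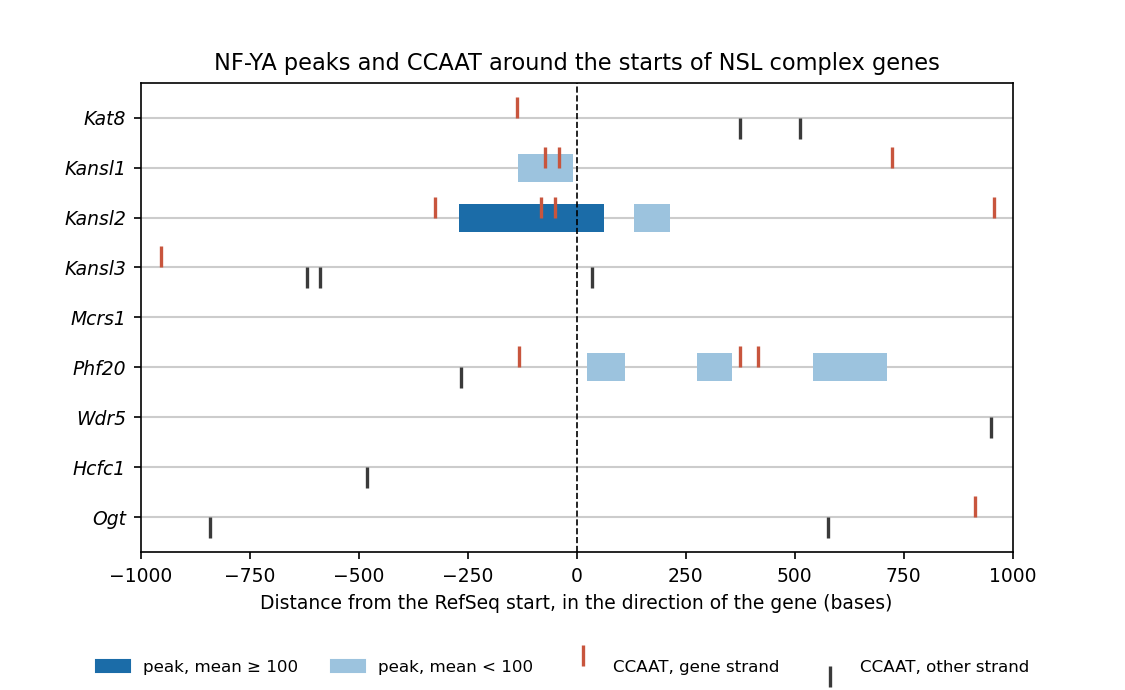
Peaks (boxes) and CCAAT (ticks above the line for the strand of the gene, below it for the other strand) within 1000 bases of the first listed RefSeq start of each NSL gene, with distance in bases in the direction of the gene. The pair lies under the peaks of *Kansl1* and *Kansl2*, whereas the peaks of *Phf20* cover no CCAAT in this window and 6 genes have no peak.

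The *Kansl2* promoter carried by far the highest signal of the NSL genes. Its values were 168 and 163 in the controls and 150 and 176 in Taf4asKO, and the genotypes overlapped. They rested on about 161 and 50 reads in the controls and 348 and 259 in Taf4asKO. The mean of 164 over the libraries ranked 450 among 7196 peaks. It exceeded 93.7% of all peaks and 86.0% of the 2776 peaks within 1000 bases of an assigned start.

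The *Kansl1* promoter peak was much weaker, at values of 20 and 20 in the controls and 25 and 29 in Taf4asKO. Every Taf4asKO value lay above both control values, which placed it among the 47.9% of tested peaks without overlap of the genotypes in either direction. About 19.1 and 6.1 reads stood behind the control values, and 58.0 and 42.6 behind those of Taf4asKO. Its mean of 23.5 exceeded 58.1% of all peaks but only 29.7% of the peaks near a start.

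Within each library *Kansl2* exceeded *Kansl1* by 8.40 and 8.15 times in the controls and 6.00 and 6.07 times in Taf4asKO. These ratios do not depend on how libraries are scaled. The log2 ratio of *Kansl1* to *Kansl2* was 0.46 higher in Taf4asKO, with p = 0.333 in an exact two-sided permutation test, the smallest p that 2 against 2 libraries allow. This ratio was chosen after the values were seen.

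Although both promoters carry the pair, they differed in their place among peaks with the same feature. Of 256 peaks with a pair 31 or 32 bases apart, the median mean value was 91.3 (quartiles 37.9 and 168). The *Kansl2* peak exceeded 73.4% of them and the *Kansl1* peak 16.8%. Peaks with the pair were also wide, with a median of 287 bases against 171 for all peaks, and the *Kansl2* and *Kansl1* peaks measured 333 and 126 bases. Per 100 bases the difference between the 2 peaks shrank to 49.3 against 18.7.

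**Figure D3:**
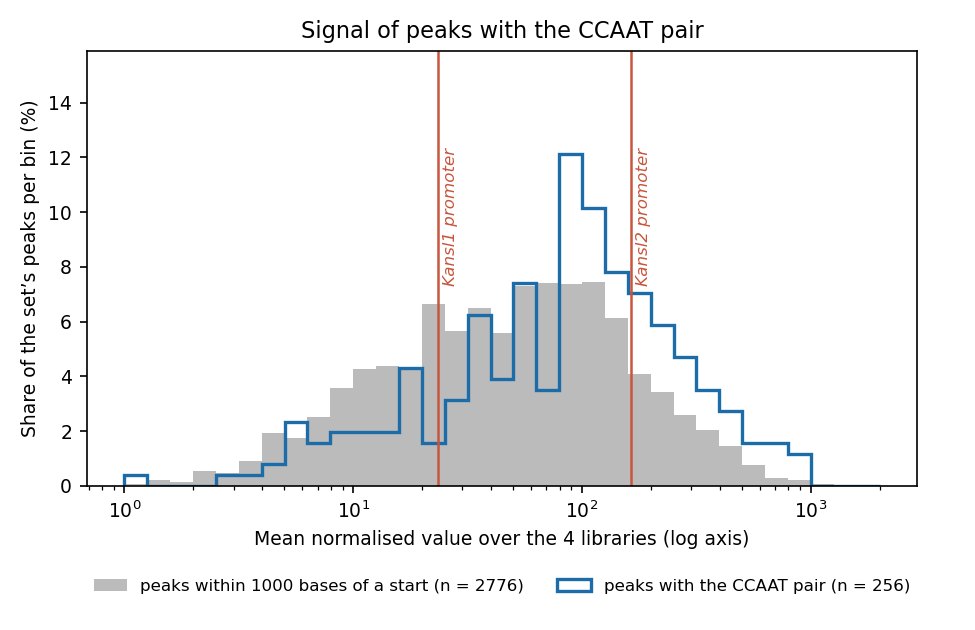
Distribution of the mean normalised value over 4 libraries (log axis) for the 2776 peaks near a start (grey) and the 256 peaks with the CCAAT pair (blue outline), in percent of each set per bin. Vertical lines place *Kansl2* at 164 in the upper part and *Kansl1* at 23.5 in the lower part of the pair peaks.

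*Phf20* differed from both, since it held several weak peaks and no strong one. The peak 248 bases after its annotated start (chr2:156196672-156196756), in the untranslated part of an exon, showed values of 13 and 10 in the controls and 10 and 20 in Taf4asKO. A peak in the intron behind it (chr2:156197190-156197359) had 16 and 10 against 11 and 13. Another between them (chr2:156196924-156197002) was weaker still, with 6 and 10 against 7 and 12. None of these 3 peaks contained CCAAT, and the genotypes overlapped at each of them. In control replicate 2 each rested on about 3.1 reads.

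The fourth *Phf20* peak (chr2:156192146-156192249) lay outside the gene, 4268 bases before its start. It showed values of 17 and 20 in the controls and 12 and 8 in Taf4asKO, and thus both control values exceeded both Taf4asKO values. It was also among the 47.9% of tested peaks without overlap of the genotypes in either direction. Its sequence is shown because it is the only *Phf20* peak with CCAAT, which lies on the other strand and appears as its reverse complement in capitals.
Phf20 distal peak: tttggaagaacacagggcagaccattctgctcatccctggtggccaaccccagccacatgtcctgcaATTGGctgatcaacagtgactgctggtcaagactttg

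The other *Kansl2* peaks were weak. One (chr15:98534055-98534138) lay 167 bases behind the start in the untranslated part of an exon and contained no CCAAT, at values of 9 and 20 in the controls and 9 and 8 in Taf4asKO. The single high value in control replicate 2 corresponded to about 6.1 reads. The other peak (chr15:98527153-98527248), in an intron 7063 bases from the start, had 6 and 3 against 6 and 7. It contained 1 CCAAT on the strand of the gene and is shown as the weakest NSL peak, with about 0.9 reads in control replicate 2. Its centre lay 718 bases from the start of *Snora2b*, a small nucleolar RNA gene within *Kansl2*, the only other gene that started within 1000 bases of an NSL peak.
Kansl2 intron peak: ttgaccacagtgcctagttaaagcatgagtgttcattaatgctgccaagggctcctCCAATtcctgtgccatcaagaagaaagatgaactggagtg

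CCAAT was thus present in 4 of the 8 NSL peaks, compared with 75.8% of all peaks and 58.6% of the 3276 peaks with a mean under 15. In 2 of these 4, the promoter peaks of *Kansl2* and *Kansl1*, it formed the pair, and the other 2 had 1 match each. In the whole series the median mean value was 7 for peaks without CCAAT, 15 with 1 match and 58.3 with 2 or more. The 4 NSL peaks without CCAAT had means of 8.75 to 13.3.

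**Figure D4:**
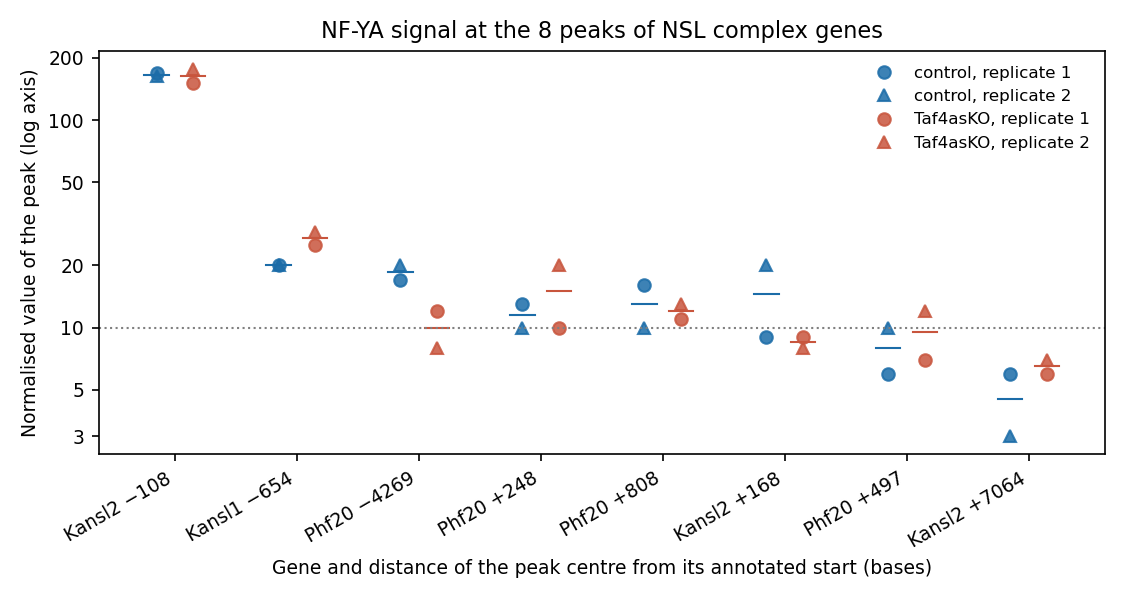
Normalised value (log axis) of the 8 peaks of NSL genes in each library, with circles for replicate 1, triangles for replicate 2, short lines for group means and a dotted line at 10, the mean below which a peak was not tested; labels give the distance of the peak centre from the annotated start in bases. The *Kansl2* promoter peak at 150 to 176 stands above all others, which lie between 3 and 29.

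A few peaks lay within NSL genes without carrying their symbol. In introns of *Kansl1* there were a peak (chr11:104412339-104412523) at values of 11 and 23 in the controls and 16 and 18 in Taf4asKO, and another (chr11:104361771-104361973) with 8 and 3 against 11 and 7. An intron of *Kansl2* held a peak (chr15:98521250-98521436) that the table assigned to a microRNA gene, with 10 and 16 against 24 and 14. The values of these 3 peaks overlapped between genotypes and were of the size of the weak NSL peaks.

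To determine whether NF-YA binding at NSL genes depended on TAF4A, the genotypes were compared with limma on log2(value + 1) across all 4746 peaks with a mean of at least 10. Of the NSL peaks 6 entered the test, and 0 passed an adjusted p of 0.05, compared with 45 of all tested peaks (0.948%). At an unadjusted p under 0.05 there were also 0 of the 6, against 849 of all tested peaks. In 2 of the 6, the values of the genotypes did not overlap, compared with 47.9% of all tested peaks. The median log2 difference was -0.05 over the 6 peaks and -0.04 over all tested peaks, with 2 higher and 4 lower in Taf4asKO.

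At the *Kansl2* promoter the level was 165.5 ± 3.54 (SD, n = 2) in the controls and 163.0 ± 18.4 in Taf4asKO. The log2 difference was -0.03 (SE 0.15, limma adjusted p 0.943), with a 95% interval from -0.37 to 0.32. An exact two-sided permutation test of the 4 values gave p = 1. Among the 739 tested peaks with a mean of 100 to 250 the median log2 difference was -0.20, and 80.6% were lower in Taf4asKO. The interval at *Kansl2* includes that median.

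The direction at the *Kansl2* promoter was not fixed. It turned to 0.12 with equal library totals, which moved the median of all tested peaks to 0.10, and to 0.09 without Taf4asKO replicate 1.

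At the *Kansl1* promoter the level was 20.0 in each control library and 27.0 ± 2.83 in Taf4asKO, a log2 difference of 0.41 (SE 0.29, limma adjusted p 0.468) with an interval from -0.24 to 1.06. Peaks of similar strength, with means of 10 to 25, had a median log2 difference of 0.14. The distal *Phf20* peak had the lowest log2 difference of the tested NSL peaks, with levels from 18.5 ± 2.12 in control to 10.0 ± 2.83 in Taf4asKO. Its log2 difference was -0.85 (SE 0.40, limma adjusted p 0.299), with an interval from -1.74 to 0.05.

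For the *Kansl2* exon peak the log2 difference was -0.61 (SE 0.50, limma adjusted p 0.525), and it was -0.08 without control replicate 2 and -1.15 without control replicate 1. The *Phf20* exon and intron peaks gave 0.29 and -0.08 (limma adjusted p 0.754 and 0.939). The direction of the former turned to -0.17 without Taf4asKO replicate 2. That of the latter turned to 0.06 with equal totals, to 0.24 without control replicate 1 and to 0.03 without Taf4asKO replicate 1. The 2 NSL peaks below the minimum were not tested.

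**Figure D5:**
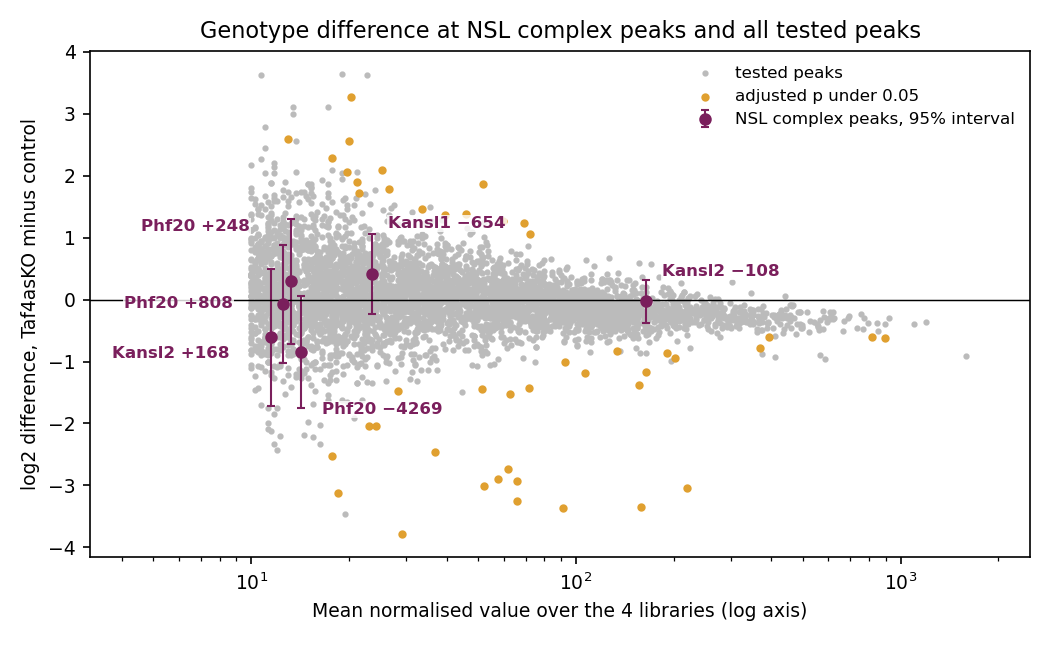
Log2 difference between Taf4asKO and control (vertical axis) against the mean normalised value (log axis) for all tested peaks (grey), the 45 with an adjusted p under 0.05 (orange) and the 6 tested NSL peaks (purple, with 95% limma intervals). All 6 intervals include 0, and that of the *Kansl2* promoter is the narrowest.

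The promoter peaks most like that of *Kansl2* over the 4 libraries, by Euclidean distance of log2(value + 1), were those of *Zfp446*, *Cdkn3* and *Sirt2*, at distances of 0.07, 0.15 and 0.16. Their control values were 168 and 170, 187 and 163, and 167 and 163, respectively. The Taf4asKO values were 151 and 173, 149 and 174, and 137 and 165.

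Genes related to the NSL complex were examined in the same table. Of 38 genes in the related lists 9 (23.7%, against 14.6% of protein-coding genes) had a peak and 5 had one within 1000 bases of the start. Of their 11 peaks 9 were tested, and 0 had a limma adjusted p under 0.05, where 1 had an unadjusted p under 0.05, beside 45 and 849 of the 4746 peaks tested. In the MSL complex, the other assembly of KAT8, 1 of 3 genes had a peak, at *Msl3* (38 and 26 in control, 33 and 42 in Taf4asKO), 1299 bases from its start. The paralogs *Kansl1l*, *Phf20l1*, *Hcfc2* and *Wdr5b* had none, and neither had *Oga* (listed as *Mgea5* in GENCODE and searched by its gene ID and synonyms), the gene of the enzyme that removes O-GlcNAc.

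Among 17 genes of the SET1 and MLL histone methyltransferase complexes, which contain WDR5, 3 had a peak. *Setd1b*, a methyltransferase, showed values of 124 and 153 in the controls and 98 and 105 in Taf4asKO at 957 bases from its start (log2 difference -0.44, limma adjusted p 0.233), and a second peak at 8031 bases had 19 and 13 against 19 and 16. At the start of *Kdm6a*, which encodes a histone demethylase, they were 128 and 91 against 104 and 105, and at that of *Men1*, the gene of menin, 75 and 68 against 67 and 57. These 3 promoters were closer in level to *Kansl2* than was any other NSL gene.

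Of 8 other lysine acetyltransferases *Kat7* had a promoter peak, with 116 and 104 in the controls and 131 and 138 in Taf4asKO (log2 difference 0.29, limma adjusted p 0.367). *Ep300* had a weak one 8104 bases from its start, with 3 and 7 against 5 and 1. In the nuclear lamina list 3 of 6 genes had peaks. *Lmna*, which encodes lamin A/C, held peaks 6597 and 6249 bases from its start with control values of 94 and 65, and 62 and 39. In Taf4asKO these were 86 and 84, and 41 and 39, overlapping control at both. *Lbr*, the gene of the lamin B receptor, had 51 and 42 against 42 and 53. *Lmnb2*, the gene of lamin B2, had 5 and 3 against 5 and 1 at 3854 bases from its start.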

How the data were processed

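NF-YA binding was measured by CUT&RUN in 4 libraries of cultured mouse MuSCs, grouped and numbered by their titles. According to the study's methods and the submitters' processing notes, the authors trimmed reads with Trimmomatic 0.39, aligned them to mm10 with STAR, removed duplicates with Picard, called peaks with MACS, merged them and counted reads with featureCounts. The deposited score is the count per merged peak after DESeq2 normalisation by the authors, rounded to whole numbers. The gene that the authors assigned to a peak, which is not always the one with the nearest annotated start, and the deposited distance to it are used as given.

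What a read was worth was estimated from how often each whole number occurred. In control replicate 2, where it was 3.26 units, 99.9% of the values were multiples of it to within rounding. In the other libraries it was near or below 1 unit, so that nearly all or all whole numbers are such multiples and their share is no check of the estimate. No count model was run, and reads are approximate. Coordinates are GRCm38 as deposited; 3972 of 3978 gene IDs were found in GENCODE M21, and promoters were taken from RefSeq (GRCm38.p6), where all 9 genes were found. CCAAT was searched on both strands.

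Genotypes were compared with limma 3.58.1 (R 4.3.3, variance trend) on log2(value + 1) with Benjamini-Hochberg adjustment over 4746 peaks, and the fit was tested on simulated data. On this scale the change of weak peaks is understated. Python 3.11.15, pandas 2.3.3, scipy 1.17.1 and pysam 0.24.0 were used. Alternatives were other scalings, no minimum, a pseudocount of 5, weights from reads, no variance trend, a replicate block and leaving out each library. All peaks of the 9 genes are named, with related lists, genes starting near a peak and the 3 promoter peaks closest to *Kansl2*. The genes and lists were chosen with earlier results of these data known.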

Additional observations from a re-analysis of the deposited data

How the results depend on the processing

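No NSL peak passed the limma threshold under any alternative that kept all 4 libraries. Without a minimum and without a variance trend no tested peak passed at all, so the lack of NSL calls there is not particular to these peaks. The fits that left out 1 library cannot decide on calls, because they leave 1 library in a genotype. At an unadjusted p under 0.05 there was 1 without a variance trend, the distal *Phf20* peak, and 1 without control replicate 1, the *Kansl2* exon peak. At the *Kansl2* promoter the limma adjusted p ranged from 0.614 to 0.989. Of 66 log2 differences recomputed for the 6 tested peaks 60 kept their sign. Equal totals turned the *Kansl2* promoter to 0.12 and the *Phf20* intron peak to 0.056. Leaving out 1 library gave -0.14 to 0.09 at the *Kansl2* promoter, -0.39 to 0.24 at the *Phf20* intron peak, -0.17 to 0.76 at the *Phf20* exon peak and -1.15 to -0.08 at the *Kansl2* exon peak. Values turned to 0.088 and 0.034 at the first 2 without Taf4asKO replicate 1, to 0.24 at the *Phf20* intron peak without control replicate 1 and to -0.17 at the *Phf20* exon peak without Taf4asKO replicate 2.

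Over all tested peaks, where 16 were higher and 29 lower, equal medians gave 129 calls (32 higher, 97 lower), weights from reads 328 (94 and 234) and equal totals 61 (30 and 31). There were 0 calls without a minimum (1015 at an unadjusted p under 0.05), 0 without a variance trend (723) and 0 in each fit that left out 1 library (227 to 1089), where the lone library of a genotype is assumed to vary like the others and fewer samples enter. What caused the remaining shifts was not tested. With the replicate block 31 peaks were called, 3 higher and 28 lower, and 0 NSL peaks; deviations from the group means correlated at -0.09 between same-numbered libraries over all tested peaks and at 0.26 over the 971 strongest (mean value 100 or more), which include the *Kansl2* promoter, and the labels do not say what a number shares.

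The *Kansl2* promoter exceeded the next NSL peak 6.99-fold by value and 2.64-fold per 100 bases. CCAAT was found in 4 NSL peaks, in 5 when the central 200 bases were searched and in 3 with the longer motif (1 base and then G or A after CCAAT). The 3 genes with a peak stayed 3 when the centre had to lie within 1000 bases of a start or any place in the gene body counted. The low number of reads in peaks in control replicate 2 limits the weak peaks.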
